A study of Mus musculus with 25 samples.

Results

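The genes described here are those that mitochondrial DNA itself encodes. They were chosen by name, as all entries of the count table whose symbol begins with mt-, and they number 37 of 55487 genes: 13 mRNAs, 2 ribosomal RNAs (rRNAs) and 22 transfer RNAs (tRNAs). Mitochondrial DNA is a small circular genome that is copied into long RNAs from both strands, and these are cut, largely at the tRNAs, into single transcripts. Its mRNAs encode core subunits of respiratory complexes I, III and IV and of ATP synthase (complex V), its rRNAs form the core of the mitochondrial ribosome, and its tRNAs serve that ribosome. Every protein that reads, matures and translates these RNAs is encoded in the nucleus. AMPK, the energy-sensing kinase, is known for promoting mitochondrial biogenesis and turnover.

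RNA came from Achilles tendons of mice aged 3 months, and the design sets the genotypes against each other both with and without a running wheel. The cKO running group held 6 libraries from AMPKcKO mice with wheels, and the cKO cage group held 6 from AMPKcKO mice with cage activity. The WT running group held 6 libraries from wildtype mice with wheels, and the WT cage group held 7 from wildtype mice with cage activity (12 libraries were male and 13 female in all). AMPKcKO is written cKO here, and the labels do not spell it out. The series title speaks of a loss of AMPKα1, a catalytic subunit of AMPK, and the count table has an entry for Cre. The promoter that drives Cre, and the length of running, are not given in the sources used here. Nothing says whether a number stands for one tendon or a pool, so p-values measure the spread between these libraries.

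Some facts of the libraries bear on everything that follows. Totals ran from 13193228 to 45724243 counts, with a median of 24538109. Counts of Cre were 0 in all 13 WT libraries and also in the library labelled cKO cage female replicate 3. Counts of eGFP, a reporter, stood at 2523 to 5122 in all 6 cKO running libraries, at 3292 and 4857 in 2 of the 6 cKO cage libraries and at 2731 in the library labelled WT running male replicate 2, against at most 64 in every other library. Among cKO mice the reporter thus went with running in 6 of 6 libraries against 2 of 6, and its part in the results was not tested. Prkaa1, which encodes AMPKα1, stood at 16.1 to 26.2 CPM in cKO running, 12.6 to 19.4 in cKO cage, 13.3 to 34.7 in WT running and 12.9 to 34.0 in WT cage (CPM are the counts scaled to a common library total). These ranges overlap, and counts over a whole gene do not show whether an exon was deleted. WT running female replicate 2 and WT running male replicate 3 stood apart from the rest over all genes. This pair was picked after seeing the data, and no measure of its distance is given here. One library stood apart in the mitochondrial genes themselves: cKO running male replicate 2 had the lowest level of 13 of the 13 mt mRNAs, and cKO cage male replicate 2 had the highest level of 11 of them. Medians of the 13 mRNAs are given with and without some of these libraries. Values of single genes are mostly given with all libraries.

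In bulk tendon RNA, fewer cells of a type and less RNA per cell cannot be told apart. Tendon cell markers, a list that also holds collagen genes, were present in every library, at 0.909% to 4.40% of the counts on nuclear genes. Markers of skeletal muscle, a tissue rich in mitochondria, took 2.11% to 11.9% over 21 genes, of which none was at 0. The median share was 2.51% for tendon and 7.62% for muscle. cKO running male replicate 2 had both the highest tendon share (4.40%) and the lowest muscle share (2.11%). The muscle markers are set beside the mitochondrial values below.

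Of the 13 mRNA genes, 4 had most of their counts on copies of them in the nuclear genome. By matching the annotated transcripts in stretches of 50 bases, 15 nuclear genes were found to share such a stretch with 10 of the 15 mt mRNAs and rRNAs. Of these, 7 lie side by side on the minus strand of chromosome 1, within 4663 bases (chr1:24611535-24616197, GRCm38). That block is a known insertion of mitochondrial DNA into the nuclear genome. Its genes Gm28661 (681 bases of mt-Co2), Gm10925 (678 bases of mt-Atp6), Gm28437 (783 bases of mt-Co3), Gm10222 (294 bases of mt-Nd4l) and Gm28439 (876 bases of mt-Nd4) were 100% identical to the mitochondrial gene over their whole length. Gm28438 differed from mt-Nd3 by 1 substitution in 345 bases, T3C, counted from the first base of the gene with the mitochondrial base first. The ends that separate copy from original are shown for mt-Co3, where the capital marks the last base that Gm28437 lacks, and for mt-Nd3, where the capital marks the substitution. All sequences here are read 5′ to 3′ from GENCODE M21 transcripts (GRCm38).
mt-Co3, last 40 bases, chrM:9351-9390, plus strand: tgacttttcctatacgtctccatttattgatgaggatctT
Gm28437, last 39 bases, chr1:24613189-24613227, minus strand: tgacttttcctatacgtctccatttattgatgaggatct
mt-Nd3, first 40 bases, chrM:9459-9498, plus strand: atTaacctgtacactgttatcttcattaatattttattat
Gm28438, first 40 bases, chr1:24613080-24613119, minus strand: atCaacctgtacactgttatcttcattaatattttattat

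The share of counts on copies differed widely between genes. Of the counts assigned to a gene and its copies together, the copies held a median of 95.7% for mt-Co2, 94.6% for mt-Co3, 94.3% for mt-Nd4l and 91.5% for mt-Atp6 over 25 libraries. They held 15.3% for mt-Nd3, 12.2% for mt-Co1, 5.61% for mt-Nd4, 4.39% for mt-Nd2 and 0.414% for mt-Nd5. No annotated copy was found for mt-Nd1, mt-Nd6, mt-Cytb, mt-Atp8 and mt-Rnr1, and the copy of mt-Rnr2 held next to none of its counts. For mt-Co3 the median was 169.7 CPM on the mitochondrial gene and 3275 on Gm28437. The genes with most counts on copies are reported as uncertain on their own, and their sum with the copies is given beside them, as a total that does not say which genome a read came from. The search covered annotated transcripts and not the genome between them. The 233 bases between Gm10925 and Gm28661 on chromosome 1 hold no transcript that the search found, and on mitochondrial DNA the stretch between the same 2 matches is also 233 bases long and holds 161 of the 204 bases of mt-Atp8. The other 43 are shared with mt-Atp6 and so with Gm10925, and mt-Atp8 is therefore not taken as free of copies.

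**Figure D1:**
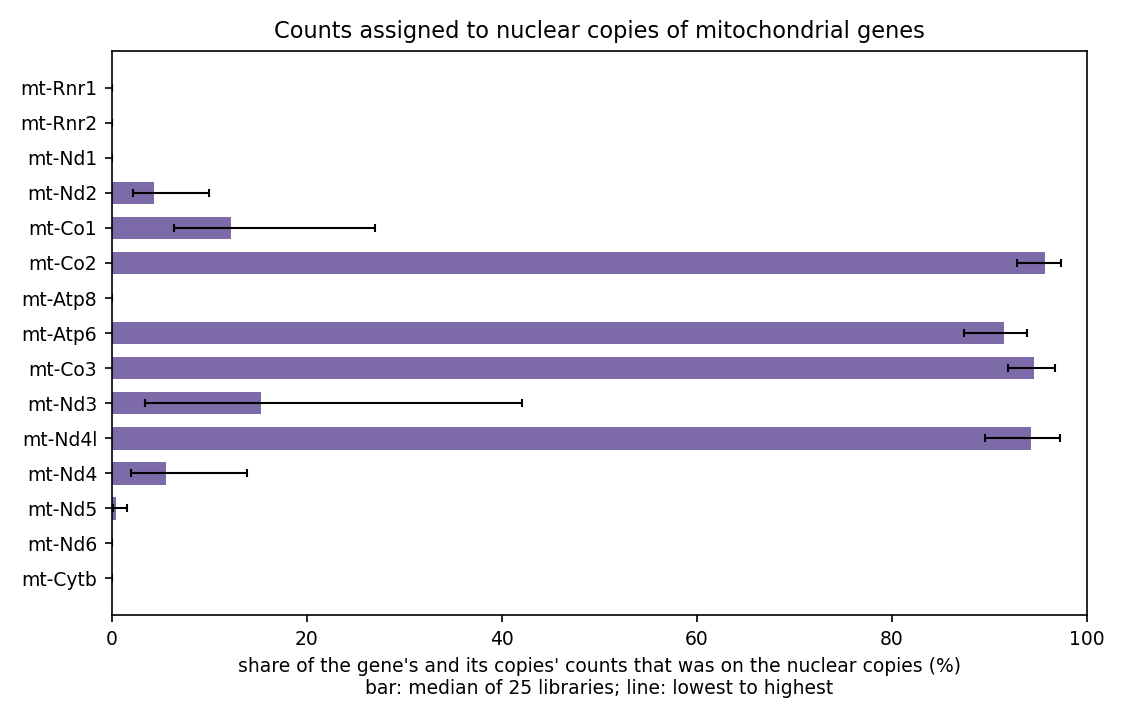
Bars give the median share, in percent over 25 libraries, of each gene's counts that was assigned to its nuclear copies, and lines span the lowest to the highest library. mt-Co2, mt-Atp6, mt-Co3 and mt-Nd4l reach at least 87.4% in every library, and the highest library of any other gene is 42.1% (mt-Nd3).

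Mitochondrial genes also overlap each other, so that a read can belong to both. Of neighbouring pairs, 9 overlap. The longest overlap is the 43 bases that mt-Atp8 and mt-Atp6, both subunits of ATP synthase, share on the same strand, and it makes up part of mt-Atp8, a gene of 204 bases. The shared bases are shown in capitals.
mt-Atp8, whole gene, chrM:7766-7969, plus strand: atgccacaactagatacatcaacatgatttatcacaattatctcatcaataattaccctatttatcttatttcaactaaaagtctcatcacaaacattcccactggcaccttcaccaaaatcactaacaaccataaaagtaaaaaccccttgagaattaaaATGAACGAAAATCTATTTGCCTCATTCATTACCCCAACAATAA
mt-Atp6, first 80 bases, chrM:7927-8006, plus strand: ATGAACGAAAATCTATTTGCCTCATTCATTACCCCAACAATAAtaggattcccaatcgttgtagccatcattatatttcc
mt-Nd4l and mt-Nd4, subunits of complex I, share 7 bases in the same way, again in capitals.
mt-Nd4l, last 40 bases, chrM:10134-10173, plus strand: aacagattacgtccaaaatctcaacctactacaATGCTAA
mt-Nd4, first 40 bases, chrM:10167-10206, plus strand: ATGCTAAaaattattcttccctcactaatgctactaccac
mt-Nd5 and mt-Nd6 overlap by 14 bases on opposite strands, in capitals below. mt-Nd6 is the 1 mRNA gene on the minus strand, which holds 9 of the 37 genes (the other 8 are tRNAs). Whether the counting used strand is not given in the sources used here, so reads of mt-Nd6 and of RNA antisense to it cannot be told apart.
mt-Nd5, last 40 bases, chrM:13526-13565, plus strand: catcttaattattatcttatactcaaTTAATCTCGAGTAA
mt-Nd6, last 40 bases, chrM:13552-13591, minus strand: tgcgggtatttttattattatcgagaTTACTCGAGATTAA

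The 2 rRNA genes together took 13.9% to 31.8% of a library's counts. Their share of a library's counts was 13.9%, 19.4% and 28.7% in cKO running (lowest, median and highest library), 20.7%, 25.5% and 31.8% in cKO cage, 17.8%, 19.6% and 25.7% in WT running and 16.6%, 25.2% and 27.7% in WT cage. The medians of both running groups lay below those of both cage groups, and all ranges overlapped. The 13 mRNAs on their own genes took 1.03%, 3.03% and 4.75% in cKO running, 3.50%, 3.72% and 5.60% in cKO cage, 2.67%, 3.49% and 4.64% in WT running and 2.88%, 4.22% and 4.46% in WT cage. The nuclear copies took another 0.372% to 1.49%. With the copies added, the mRNA share was 3.96% ± 1.55 in cKO running, 5.37% ± 0.957 in cKO cage, 4.72% ± 0.767 in WT running and 5.10% ± 0.694 in WT cage (SD, n = 6, 6, 6 and 7). Counts on the rRNAs were 3.88 to 9.89 times those on the mRNAs and copies, and the highest ratio was that of cKO running male replicate 2 (the next highest in its group was 5.88). No step of the library preparation that removes or keeps rRNA is given in the sources used here, and a share of counts under such a step is not a share of the cell's RNA.

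Compared per length, mt-Rnr2 (16S rRNA) and mt-Rnr1 (12S rRNA) had median levels of 91793 and 85234 CPM per kb of gene. With copies included, the median levels of the mRNAs ran from 822 CPM per kb for mt-Nd3 to 8697 for mt-Co1, a subunit of the catalytic core of cytochrome c oxidase. mt-Cytb, the only complex III subunit encoded here, was second at 5857, followed by mt-Atp6 at 4802, mt-Co2 at 4425 and mt-Co3 at 4372 CPM per kb. Of the complex I genes, mt-Nd1 stood at 3978, mt-Nd4 at 3267, mt-Nd2 at 2917, mt-Nd5 at 2604, mt-Nd6 at 1684 and mt-Nd4l at 1665 CPM per kb. Complex I genes thus filled 5 of the 6 lowest places, and mt-Atp8, at 2420.2 CPM per kb, filled the other. The deposited FPKM give another order for mt-Atp8, the shortest of these genes, and for mt-Nd4l, mt-Nd6 and the rRNAs. The median was 3061 FPKM for mt-Nd6, above the 2961 of mt-Nd5, and 113565 for mt-Rnr1, above the 105815 of mt-Rnr2. mt-Atp8 had a median of 27365 FPKM, above the 9001 FPKM of mt-Co1. Gm10222, the copy that held most counts of mt-Nd4l, had a median of 6021 FPKM, above the 5301 of mt-Nd1. RSEM, which the submitters' processing notes name, divides by an effective length that is shorter than the gene.

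The tRNAs were next to absent from the counts. All 22 together had 0 to 11 counts in a library and 89 over all 25 libraries, and none passed the filter on low counts, so none was tested. A count of 0 allows up to 3 counts in a library, which is 0.0656 to 0.227 CPM, for counting error only. mt-Tg, the tRNA for glycine, had 47 of the 89 counts, in 20 libraries and at most 6 in 1 library. mt-Tm had 17 counts, mt-Tq 10, mt-Tv 6, mt-Te 4 and mt-Tl1 2, while 13 tRNA genes had none in any library. All 22 were listed at 0 FPKM throughout. The tRNA genes are 59 to 75 bases long, and mt-Tg is shown as the 1 with most counts.
mt-Tg, whole gene, chrM:9391-9458, plus strand: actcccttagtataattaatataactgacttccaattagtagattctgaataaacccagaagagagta

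The 13 mRNAs moved together from library to library. Within the 4 groups, the SD of a gene's log2 level was 0.55 to 0.68, with a median of 0.60, and after subtraction of the mean of the other 12 mRNAs the median SD was 0.22. The correlation of a gene's deviations with that mean, over 25 libraries that share depth and muscle content with it, was 0.99 for mt-Nd4, mt-Co1 and mt-Cytb, 0.77 for mt-Co2 and 0.42 for mt-Nd4l. With the copies' counts added, it was 0.98 for mt-Co2 and 0.89 for mt-Nd4l. A count of mRNAs with the same sign is thus a description of 1 shared movement and not of 13 separate ones.

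The spread within a group was also wide. For the 15 mRNAs and rRNAs, the median coefficient of variation was 49.995% in cKO running, 35.6% in cKO cage, 37.3% in WT running and 25.9% in WT cage. For 7965 genes with a mean of at least 10 CPM it was 17.4%, 15.8%, 18.0% and 16.0% in the same groups. Relative to each gene's median over 25 libraries, the 13 mRNAs of cKO running male replicate 2 averaged -2.20 on the log2 scale and those of cKO cage male replicate 2 averaged 1.02, with every other library between -0.81 and 0.70.

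**Figure D2:**
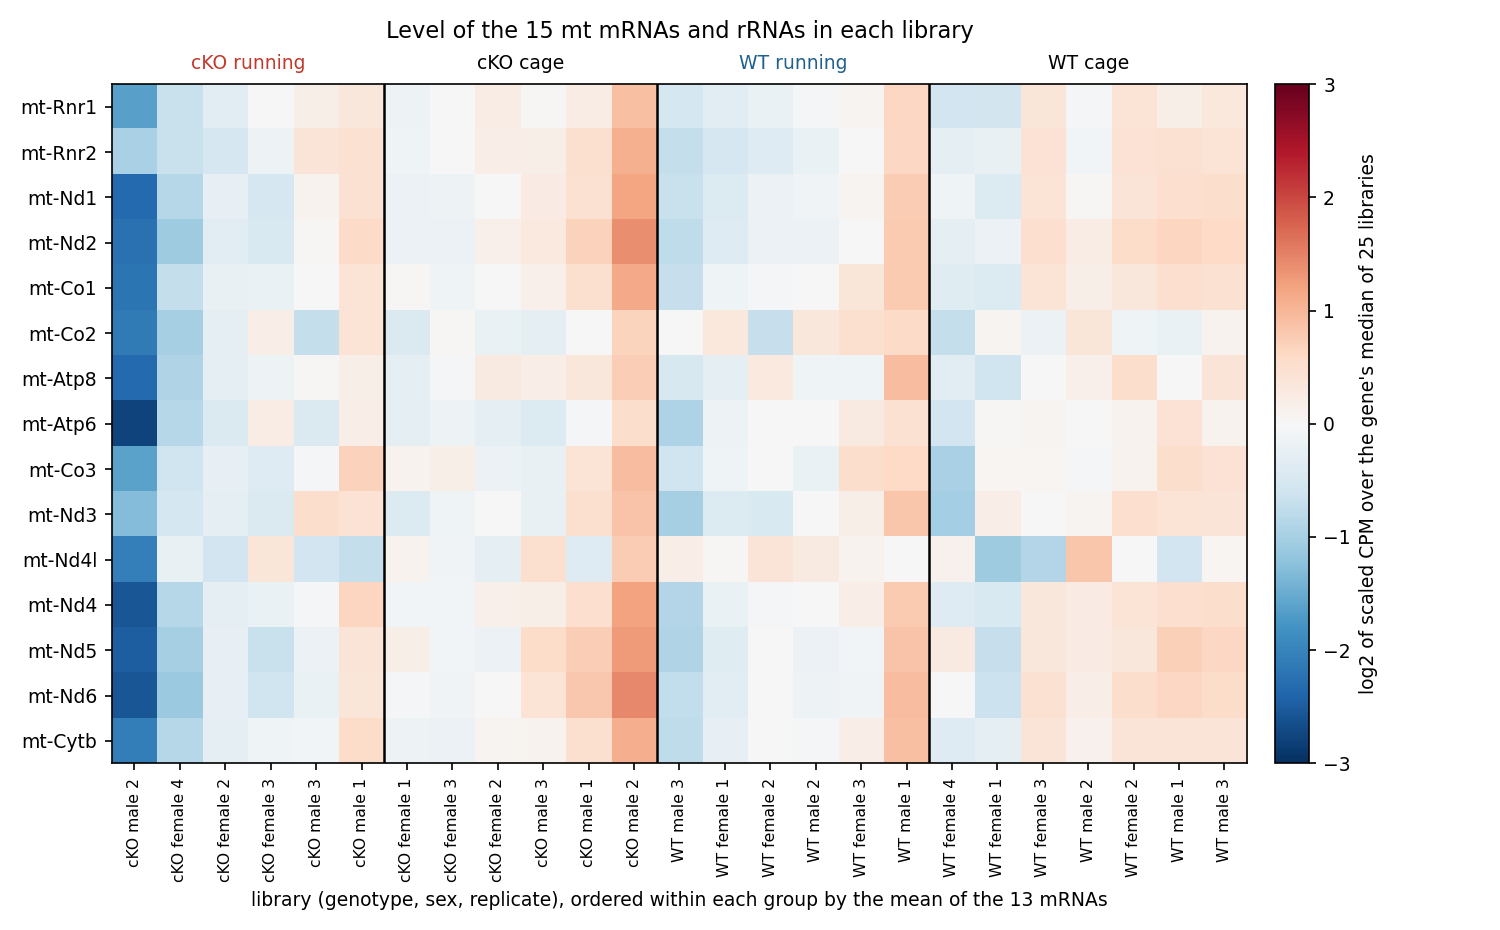
Each cell gives the log2 ratio of a gene's scaled CPM in 1 library to its median over 25 libraries, for the 15 mt mRNAs and rRNAs (down) and the libraries by group (across). The columns of cKO running male replicate 2 (lowest in 13 of 13 mRNAs) and cKO cage male replicate 2 (highest in 11 of 13) stand out, and most genes share 1 pattern.

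Mean levels of all 13 mRNAs and both rRNAs were lower in runners than in cage animals, and the differences were within the spread between libraries. Taken as the mean of both genotypes (12 runners against 13 cage animals), 0 of the 15 tested genes passed edgeR's test at an adjusted p under 0.05, where 1.41% of all 19155 tested genes did (271). At an unadjusted p under 0.05 there were 4 of 15 (mt-Nd6, mt-Nd5, mt-Nd2 and mt-Nd1), against 14.9% of all genes. The median log2 fold change of the 13 mRNAs was -0.33, beside 0.01 over all tested genes. Without cKO running male replicate 2 it was -0.22, with 12 of 13 negative, and without the 2 WT running libraries that stood apart it was -0.27, with 12 of 13. Without the 2 libraries that went against their label it was -0.33. In the labels, the library names of cKO male replicate 3 at cage activity and WT cage female replicate 4 start with another code than all the others, runners included. What this code stands for is not given in the sources used here. With the code as a term the median was -0.39, with 0 of 15 called and 182 of all genes. Without those 2 libraries it was -0.38, with 0 of 15 called and 127 of all genes. The call on individual genes depended on the filter and the tool: without a filter on low counts edgeR called 3 (mt-Nd2, mt-Nd5 and mt-Nd6), limma-voom with library quality weights called 2 (mt-Nd5 and mt-Nd6), and DESeq2 and limma on FPKM called 0.

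Within the cKO mice the values were farther from 0. For cKO running against cKO cage, all 13 mRNAs and both rRNAs were negative, with a median of -0.61 for the mRNAs beside 0.03 over all genes, and 0 of 15 passed the test where 0.0418% of all genes did (8). Unadjusted p was under 0.05 for 4 of 15, against 13.6% of all genes, and edgeR without the filter called 2 (mt-Nd5 and mt-Nd6). Leaving out cKO running male replicate 2 brought the median to -0.39, still with 13 of 13 negative, and without the 2 libraries against their label it was -0.66. In WT mice the median for running against cage was -0.10 on own counts, with 9 of 13 mRNAs negative and values from -0.41 to 0.28. Here 0 of 15 passed, where 0.131% of all genes did (25), and 0 of 15 had an unadjusted p under 0.05. The WT median was 0.05 without the 2 libraries that stood apart and -0.05 without the 2 against their label. The genes with most counts on copies were 0.28 (mt-Co2), 0.26 (mt-Nd4l), 0.01 (mt-Co3) and -0.06 (mt-Atp6) in WT on own counts. With the copies added they were 0.07, -0.10, -0.06 and -0.18 in the same order.

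Muscle markers had the same sign as the mt mRNAs in cKO and the opposite sign in WT. For cKO running against cKO cage, 21 of 21 muscle markers were negative with a median log2 fold change of -0.51, and their summed share was 2.11% to 9.18% against 5.75% to 10.6% of nuclear counts. For running against cage in WT, 2 of 21 were negative with a median of 0.23, and the share was 5.33% to 11.9% against 2.86% to 8.68%. With the mean level of these markers as a covariate, the median of the 13 mRNAs was -0.27 in cKO, -0.11 in WT and -0.17 for the mean of both genotypes. For that mean itself, 14 of 21 markers were negative with a median of -0.10. The part of muscle content in the differences was not tested beyond this. No mRNA or rRNA had groups that did not overlap in any of the 4 pairwise comparisons, and among all 19155 genes 170 had none for running in cKO, 105 for running in WT, 72 for genotype in runners and 9 for genotype at cage activity. With so low a background, 0 of 15 is no result about the mt genes.

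**Figure D3:**
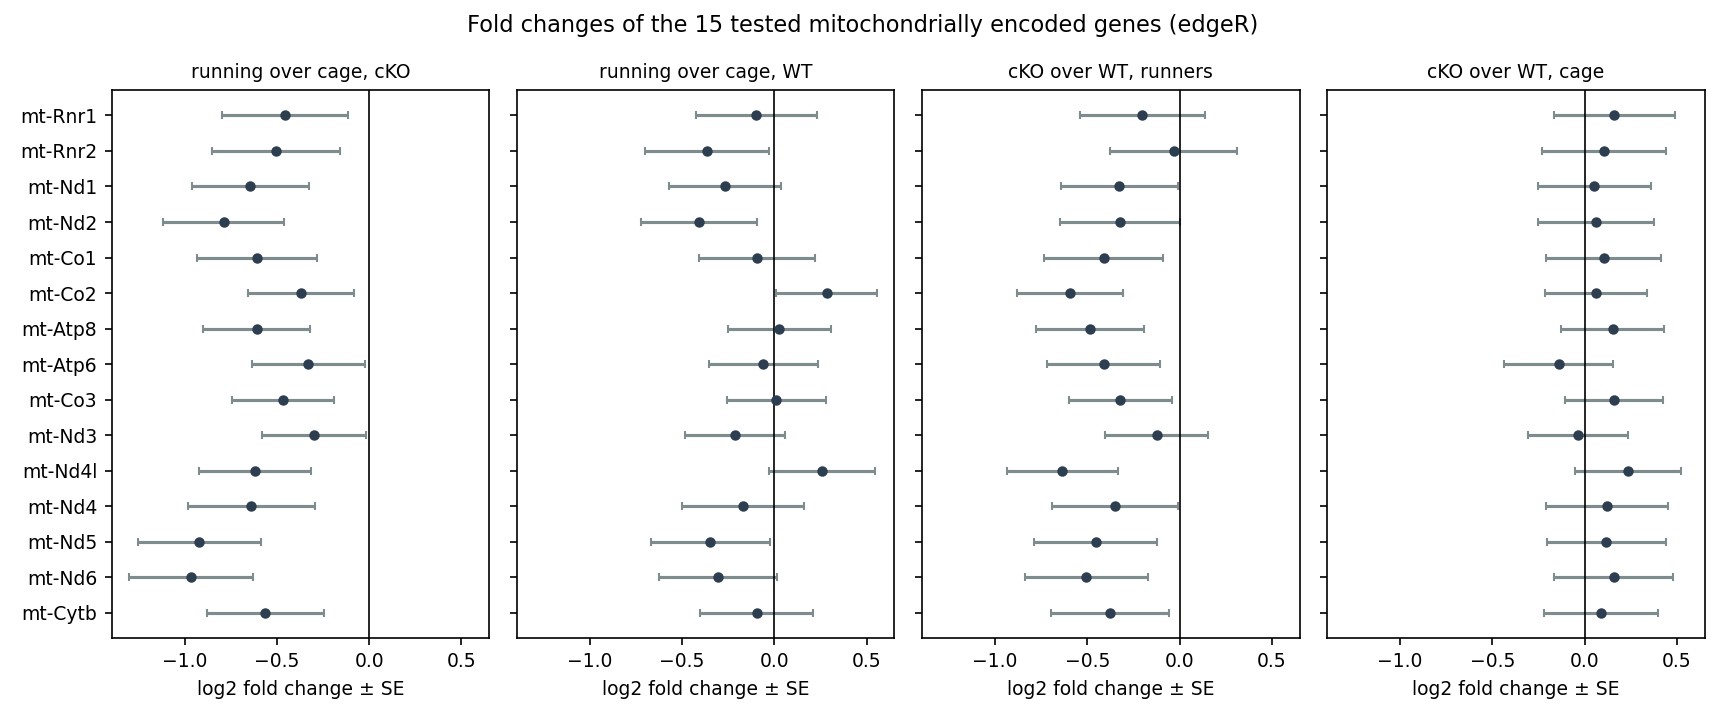
Points give the log2 fold change and lines its SE for the 15 tested genes, in map order, for running over cage (cKO, then WT) and cKO over WT (runners, then cage). All 15 points lie below 0 in the panels of running in cKO and of genotype in runners, and 13 of 15 lie above 0 in that of genotype at cage activity.

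Complex I, which takes electrons from NADH, has 7 subunits encoded here, and the genes with the smallest p for running were among them. mt-Nd6 (ENSMUSG00000064368, 13552 to 14070 on the minus strand) stood at 147, 657 and 1126 CPM in cKO running, 817, 1022 and 2379 in cKO cage, 526, 796 and 1664 in WT running and 559, 1207 and 1334 in WT cage, each as the lowest, median and highest library and scaled by TMM. The groups overlapped, and the median of either running group lay below the median of its cage group. Its log2 fold change for running was -0.64 ± 0.23 (SE, adjusted p = 0.187) as the mean of both genotypes, -0.97 ± 0.34 in cKO (adjusted p = 0.235) and -0.30 in WT. Without cKO running male replicate 2 the mt-Nd6 value in cKO was -0.73. mt-Nd5 (ENSMUSG00000064367, 11742 to 13565 on the plus strand), its neighbour on the other strand, stood at 818, 3349 and 5937 CPM in cKO running, 4031, 5898 and 10958 in cKO cage, 2446, 4178 and 8154 in WT running and 2799, 5701 and 7426 in WT cage. Its fold change was -0.63 ± 0.23 (SE, adjusted p = 0.189) for the mean and -0.92 ± 0.34 in cKO (adjusted p = 0.248). Without cKO running male replicate 2 the mt-Nd5 value in cKO was -0.69.

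mt-Nd2 (ENSMUSG00000064345, 3914 to 4951 on the plus strand) stood at 569, 2054 and 3976 CPM in cKO running, 2397, 3148 and 7105 in cKO cage, 1575, 2391 and 4643 in WT running and 2246, 3835 and 4207 in WT cage. Its fold change for running was -0.60 ± 0.23 (SE, adjusted p = 0.208) for the mean and -0.79 ± 0.33 in cKO (adjusted p = 0.293). Without cKO running male replicate 2 the mt-Nd2 value in cKO was -0.57. In WT running, a single library, male replicate 1, lay well above the other 5. mt-Nd1 (ENSMUSG00000064341, 2751 to 3707 on the plus strand) stood at 755, 2961 and 5296 CPM in cKO running, 3394, 4191 and 8668 in cKO cage, 2411, 3482 and 6515 in WT running and 2864, 4969 and 5549.8 in WT cage, with a fold change of -0.46 ± 0.22 (SE, adjusted p = 0.33) for the mean. mt-Nd4 (ENSMUSG00000064363, 10167 to 11544 on the plus strand) had -0.40 ± 0.24 (SE, adjusted p = 0.442). mt-Nd3 (ENSMUSG00000064360, 9459 to 9806 on the plus strand), at 96.6 to 424 CPM over the libraries, had -0.26 ± 0.20 (SE, adjusted p = 0.577). Of the complex I genes, 7 of 7 were negative for the mean, with a median of -0.46. mt-Nd4l (ENSMUSG00000065947, 9877 to 10173 on the plus strand) is the most uncertain of them, with 285 to 1391 counts a library on its own gene. Its fold change for running was -0.18 ± 0.21 (SE, adjusted p = 0.746) for the mean from those counts and -0.47 ± 0.22 (SE, adjusted p = 0.31) with Gm10222 added, and -0.62 ± 0.30 and -0.84 ± 0.32 in cKO in the same order.

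The share of mt-Nd6 among all mt mRNA and copy counts does not depend on a library's total, and since the use of strand is unknown it may include RNA antisense to mt-Nd6. It was 1.47%, 1.56% and 1.88% in cKO running, 1.85%, 1.99% and 2.37% in cKO cage, 1.53%, 1.77% and 2.06% in WT running and 1.66%, 1.99% and 2.11% in WT cage (lowest, median and highest). Of the 6 cKO running libraries, 5 lay below every cKO cage library. In WT the ranges overlapped more, since WT cage female replicate 1, at 1.66%, lay below 5 of the 6 runners. No test was made of this share.

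Complex III and complex IV hold 4 of the mRNAs. mt-Cytb (ENSMUSG00000064370, 14145 to 15288 on the plus strand), which encodes cytochrome b, stood at 1554, 5746 and 9628 CPM in cKO running, 5858, 7026 and 13979.8 in cKO cage, 3907, 6497 and 12233 in WT running and 5043, 8559 and 8663 in WT cage. Its fold change for running was -0.33 ± 0.22 (SE, adjusted p = 0.513) for the mean and -0.56 ± 0.32 in cKO (adjusted p = 0.435). mt-Co1 (ENSMUSG00000064351, 5328 to 6872 on the plus strand) stood at 2474, 9811 and 15194 CPM in cKO running, 10360.2, 12099 and 24959 in cKO cage, 6986, 11125 and 19489 in WT running and 8514, 14345 and 16064 in WT cage. Its fold change was -0.35 ± 0.23 (SE, adjusted p = 0.49) for the mean and -0.61 ± 0.33 in cKO (adjusted p = 0.407). In both genes the highest and the lowest of all libraries were cKO mice. mt-Co2 (ENSMUSG00000064354, 7013 to 7696 on the plus strand) and mt-Co3 (ENSMUSG00000064358, 8607 to 9390 on the plus strand) had fold changes of -0.04 ± 0.20 (SE, adjusted p = 0.947) and -0.23 ± 0.19 (SE, adjusted p = 0.626) on their own counts. With the copies added they were -0.21 ± 0.19 and -0.28 ± 0.20 (adjusted p = 0.668 and 0.538). In cKO they were -0.37 ± 0.29 and -0.47 ± 0.28 alone, and -0.48 ± 0.28 and -0.49 ± 0.28 with the copies. For mt-Co2, whose own counts are a small part of the sum, the direction for the mean turned positive (0.03) with the muscle covariate, in females alone (0.12) and in other settings given further on. With copies included, mt-Co2 stood at 680.1, 2508 and 3767 CPM in cKO running, 2444, 3240.2 and 4975 in cKO cage, 2063, 3178 and 4712 in WT running and 2015, 3137 and 3742 in WT cage, and mt-Co3 at 862, 2609 and 4041 CPM in cKO running, 2822, 3546 and 6061 in cKO cage, 2318, 3121 and 5524 in WT running and 2198, 4024 and 4259.7 in WT cage.

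The ATP synthase genes had intermediate values. mt-Atp8 (ENSMUSG00000064356, 7766 to 7969 on the plus strand), which has no annotated copy gene but lies in the stretch described above, stood at 102, 442 and 581 CPM in cKO running, 428, 605 and 861 in cKO cage, 366, 468 and 975 in WT running and 338, 518 and 735 in WT cage. Its fold change for running was -0.29 ± 0.20 (SE, adjusted p = 0.529) for the mean and -0.61 ± 0.29 in cKO (adjusted p = 0.363). mt-Atp6 (ENSMUSG00000064357, 7927 to 8607 on the plus strand), which forms part of the proton channel, had -0.19 ± 0.21 (SE, adjusted p = 0.724) on its own counts and -0.35 ± 0.21 with its copies (adjusted p = 0.442). With copies included it stood at 701, 2930.0 and 3891 CPM in cKO running, 2795, 3477 and 6589 in cKO cage, 2148, 3092 and 5425 in WT running and 2443, 3802 and 4369 in WT cage. On own counts, the 6 mRNAs outside complex I had a median of -0.26 for the mean of both genotypes, beside -0.46 for the 7 of complex I. The own counts of mt-Co2, mt-Co3 and mt-Atp6 are uncertain. With copies added, the 6 ran from -0.36 (mt-Co1) to -0.21 (mt-Co2), and the 7 of complex I from -0.64 (mt-Nd6) to -0.22 (mt-Nd3). The difference between complexes was not tested.

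Both rRNAs were lower on average in runners. mt-Rnr1 (ENSMUSG00000064337, 70 to 1024 on the plus strand) stood at 27063, 75189 and 106181 CPM in cKO running, 74851, 91536 and 157623 in cKO cage, 58244, 76648 and 128666 in WT running and 56059, 94018 and 111639 in WT cage, and mt-Rnr2 (ENSMUSG00000064339, 1094 to 2675 on the plus strand) at 71608, 112335 and 190133 CPM in cKO running, 128315, 159391 and 294388 in cKO cage, 85126, 114399 and 214649 in WT running and 116670.0, 185561 and 192668 in WT cage. Their fold changes for running were -0.28 ± 0.24 (SE, adjusted p = 0.63) and -0.43 ± 0.24 (SE, adjusted p = 0.411) for the mean of both genotypes. In cKO they were -0.46 ± 0.34 and -0.50 ± 0.35, with adjusted p = 0.567 and 0.529. The ratio of mt-Rnr2 to mt-Rnr1 counts was 1.46 to 2.65 in cKO running, 1.64 to 1.97 in cKO cage, 1.45 to 1.67 in WT running and 1.61 to 2.08 in WT cage. The 6 WT runners lay at the low end, and only WT running male replicate 1 (1.67) lay above the lowest WT cage library. The highest ratio was again that of cKO running male replicate 2, and no test was made of it.

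**Figure D4:**
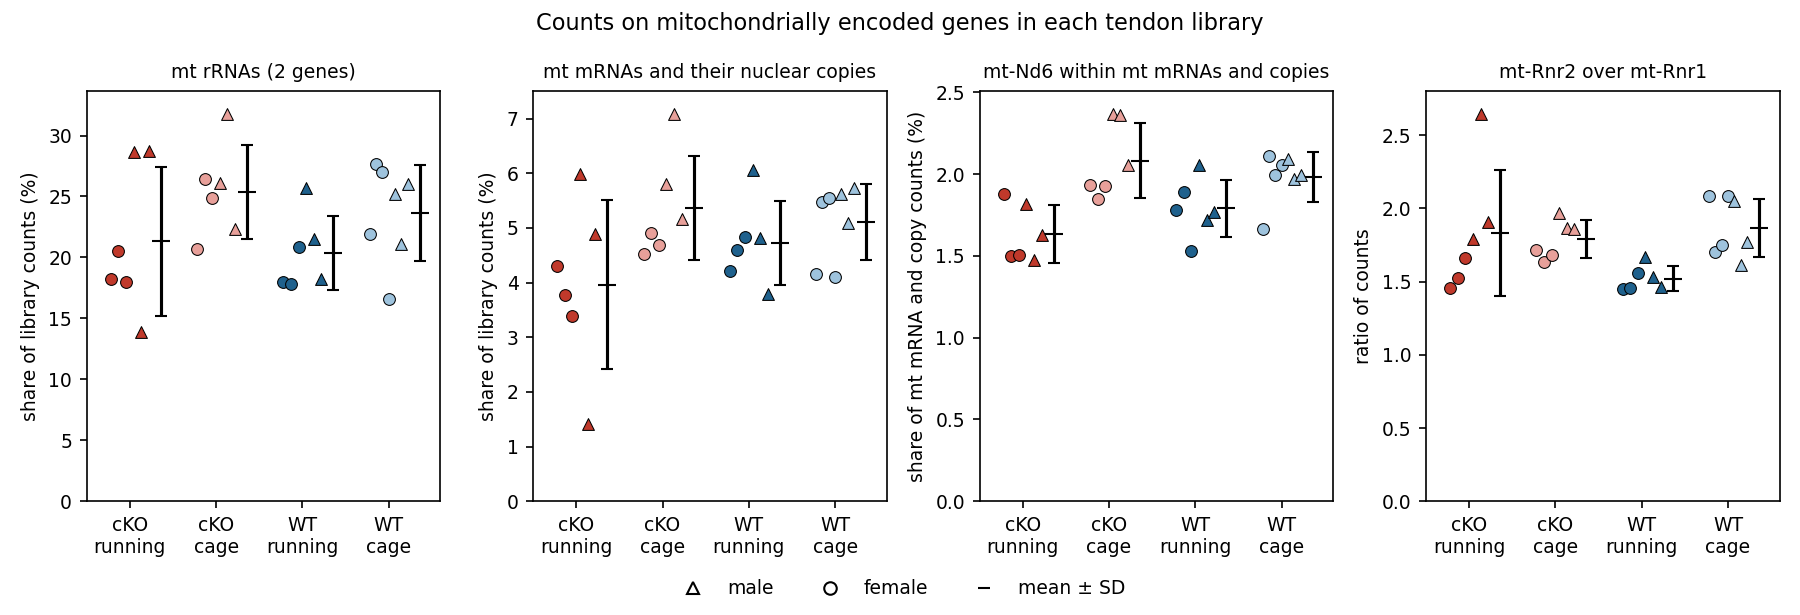
Points are single libraries, with triangles for males and circles for females, and bars give the mean ± SD of each group. The panels show the rRNA share and the mRNA and copy share of library counts (both in %), the share of mt-Nd6 among mRNA and copy counts (in %), and the ratio of mt-Rnr2 to mt-Rnr1 counts. The groups overlap in all 4, and cKO running male replicate 2 lies lowest for both library shares (13.9% and 1.41%) and highest for the ratio (2.65).

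The cKO genotype had median differences of opposite sign in runners and at cage activity, again within the spread. For cKO running against WT running, 13 of 13 mRNAs were negative with a median log2 fold change of -0.41, beside 0.01 over all genes, and 0 of 15 mt genes passed, as did 0% of all genes. Unadjusted p was under 0.05 for 2 of 15 (mt-Nd4l and mt-Co2, both of uncertain counting), against 11.3% of all genes. The values were -0.64 ± 0.30 (SE, adjusted p = 0.438) for mt-Nd4l and -0.59 ± 0.29 (SE, adjusted p = 0.439) for mt-Co2, and with copies added -0.55 ± 0.32 and -0.43 ± 0.28 (adjusted p = 0.491 and 0.53). Among genes with no annotated copy gene, mt-Nd6 had -0.50 ± 0.33, mt-Atp8 -0.49 ± 0.29, mt-Cytb -0.38 ± 0.32 and mt-Nd1 -0.33 ± 0.32, with adjusted p from 0.504 to 0.675. The rRNAs were near 0, at -0.20 ± 0.34 for mt-Rnr1 and -0.03 ± 0.35 for mt-Rnr2. One library moved this median by more than 1.5 times: without cKO running male replicate 2 it was -0.18, with 12 of 13 negative, and with the muscle covariate it was -0.13. Without the 2 libraries that stood apart it was -0.53, and without the 2 against their label it was -0.43. All 21 muscle markers were negative in the same comparison, with a median of -0.62 and a share of 2.11% to 9.18% against 5.33% to 11.9%.

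At cage activity, cKO against WT had 11 of 13 mRNAs positive with a median of 0.10, beside 0.00 over all genes. None of 15 passed, as did 0% of all genes, and 0 of 15 had an unadjusted p under 0.05. The median was -0.07 without cKO cage male replicate 2, so its sign rests on that library. Of the muscle markers, 6 of 21 were negative here, with a median of 0.08. For the mean of both activities (12 cKO against 13 WT libraries), the median was -0.15 with 0 of 15 called, where 0.00522% of all genes were (1), and 0 of 15 had an unadjusted p under 0.05. All 21 muscle markers were negative for that mean, with a median of -0.29. DESeq2 and limma on FPKM called 0 of 15 mt genes in every one of the 8 comparisons. The genotype-by-running interaction, which tests whether running differed between genotypes, had 0 of 15 called where 0% of all genes were, and an unadjusted p under 0.05 for 1 of 15, against 7.19% of all genes. Its median over the mRNAs was -0.48 with SE of 0.38 to 0.47 per gene, and the lowest adjusted p was 0.672 for mt-Nd4l. The unadjusted edgeR p of mt-Nd4l was 0.0462 on its own counts and 0.0993 with Gm10222 added. The interaction values of mt-Nd4l were -0.87 ± 0.42 and -0.75 ± 0.44 (SE) in the same order. The negative values of running in cKO and the near-zero values in WT were thus not shown to differ.

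Males had higher mean levels of all 13 mRNAs and both rRNAs than females, and none passed the test. The median log2 fold change of male against female was 0.32 (12 against 13 libraries), with 0 of 15 called where 0.616% of all genes were (118). Unadjusted p was under 0.05 for 2 of 15, against 10.1% of all genes. The values nearest to a call were 0.43 ± 0.20 (SE, adjusted p = 0.46) for mt-Nd3 and 0.47 ± 0.23 (SE, adjusted p = 0.482) for mt-Nd2. Of the muscle markers 13 of 21 were positive in the same comparison, with a median of 0.29. The list holds 13 markers of fast and 8 of slow skeletal muscle, and their shares of nuclear counts went opposite ways. The median fast share was 4.85% in males and 3.80% in females, while the median slow share was 2.88% and 3.65%. The ranges of the sexes overlapped for both shares, which were not tested. Within 1 sex, the median of the 13 mRNAs for running against cage was -0.41 in cKO females and -0.83 in cKO males, and -0.02 and -0.25 in WT females and males. The cKO males include cKO running male replicate 2, lowest in 13 of 13 mRNAs, and cKO cage male replicate 2, highest in 11. No fit of males was made without these libraries, and whether running differed between the sexes was not tested.

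The relation to muscle RNA was also taken across all 25 libraries. Both measures were taken per nuclear-gene count, so that counts assigned to the mt genes did not enter the denominator. Counts on the nuclear copies, 0.372% to 1.49% of a library, did enter it. For mt-Co1, Pearson's r of the log2 level with the muscle share was 0.627 (two-sided permutation p = 0.00111, 0.00222 adjusted over 2 relations) and Spearman's rho was 0.415 (permutation p = 0.0403, adjusted 0.0806). Without the 2 libraries farthest from the median share, cKO running male replicate 2 and WT cage female replicate 1, r was 0.416 (permutation p = 0.0477, adjusted 0.0954). It was 0.419 without cKO running male replicate 2 alone (adjusted permutation p = 0.0835). It was 0.674 without WT cage female replicate 1 alone (adjusted permutation p = 0.0023). The Pearson relation at the adjusted threshold thus rests on cKO running male replicate 2. Within the groups r was 0.733 in cKO running, 0.827 in cKO cage, 0.905 in WT running and 0.218 in WT cage (n = 6, 6, 6 and 7, with no test). For mt-Rnr2 the relation did not pass (r = 0.283, permutation p = 0.170, rho = 0.129, permutation p = 0.535), and within the groups r was 0.330, 0.623, 0.743 and -0.01 in the same order. The points share library, depth and tissue piece.

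**Figure D5:**
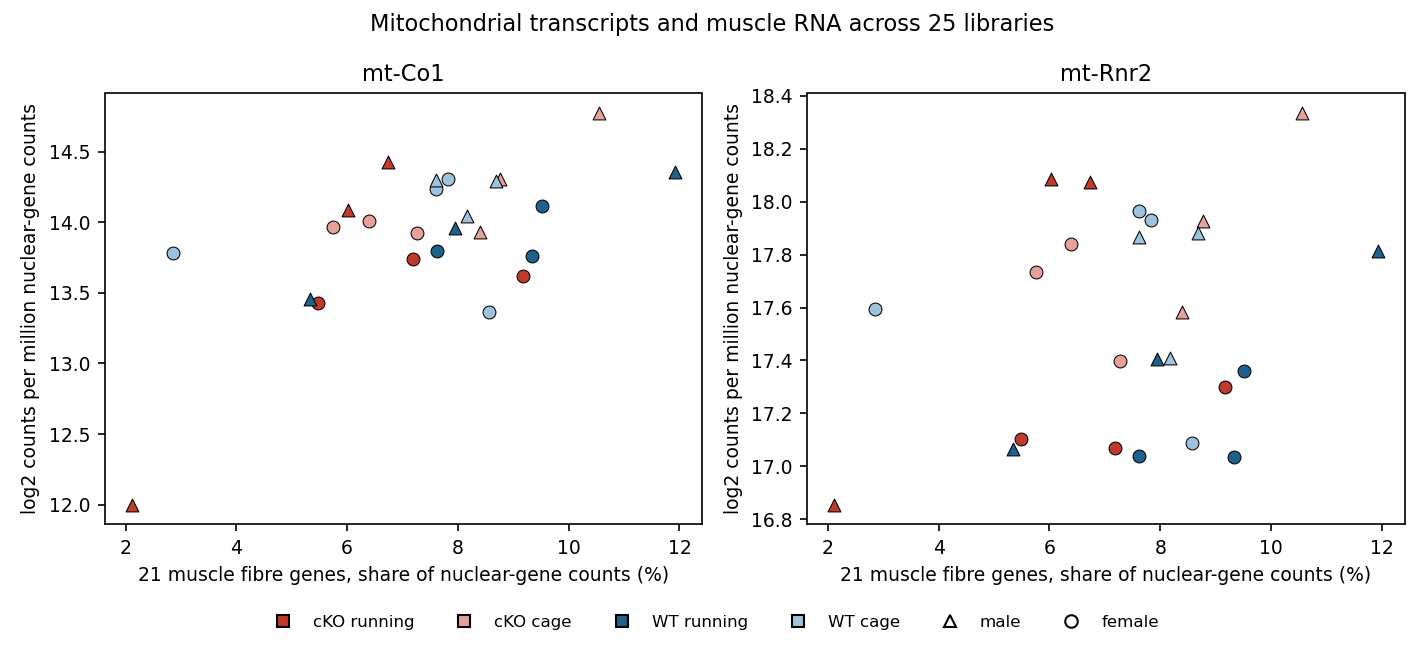
Each point is 1 library, with the muscle share of nuclear-gene counts in percent (across) and the log2 level of mt-Co1 or mt-Rnr2 scaled to nuclear-gene counts (up), coloured by group. cKO running male replicate 2 lies lowest on both axes in the mt-Co1 panel, and r over 25 libraries is 0.627 for mt-Co1 and 0.283 for mt-Rnr2.

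The nuclear genes that make, keep and translate mitochondrial RNA were examined as a list of 110, of which 109 were tested. For running against cage as the mean of both genotypes, 1 fell and none rose, 86 of 109 were negative, and their median was -0.10. The call rate over all genes was 1.41%. Counts of signs in this list are descriptions of genes from the same libraries, and they were not tested. The gene that fell was Fastkd1 (ENSMUSG00000027086), a mitochondrial RNA-binding protein of the FASTK family, which regulates the levels of single mt mRNAs in human cells. It stood at 5.82, 7.55 and 7.84 CPM in cKO running, 8.44, 11.4 and 14.0 in cKO cage, 5.74, 7.28 and 9.89 in WT running and 6.18, 11.3 and 14.2 in WT cage (lowest, median and highest). No cKO runner reached the lowest cKO cage library, while WT cage female replicate 1, at 6.18, lay among the WT runners. Its log2 fold change was -0.58 ± 0.11 (SE, adjusted p = 0.00616) for the mean, -0.62 ± 0.16 in cKO and -0.54 ± 0.15 in WT (SE, adjusted p = 0.133 and 0.172). The call held without each library in turn (adjusted p from 0.000453 to 0.0168) and with the muscle covariate (-0.47, adjusted p = 0.00563), but not with limma on log2(FPKM + 1), where it was -0.33 (adjusted p = 0.0953), nor in females (0.416) or males (0.0528) alone.

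Fastkd1 belongs to the 19 genes of RNA stability and turnover, of which 15 were negative, with a median of -0.09. The other 5 roles had no call for running. Lrpprc, whose product binds and stabilises mt mRNAs, had -0.54 ± 0.16 (SE, adjusted p = 0.0934), at 32.5 to 92.6 CPM in runners against 33.4 to 119 CPM in cage animals. It was called by edgeR without the filter on low counts (adjusted p = 0.00131), by DESeq2 (0.0288), by limma-voom (0.00789), with the muscle covariate (0.0463) and without WT cage female replicate 1 (0.0193) or WT running male replicate 1 (0.0486). Of 16 genes of transcription, 11 were negative (median -0.08). Tfam, the packaging and transcription factor of mtDNA, had -0.24 ± 0.13 (SE, adjusted p = 0.399), and Tfb2m, a transcription initiation factor, had -0.28 ± 0.15 (SE, adjusted p = 0.402). All 14 tested translation factors and activators were negative (median -0.23). Among them Rmnd1, needed for mitochondrial translation, had -0.35 ± 0.11 (SE, adjusted p = 0.118), with a call by limma-voom (0.0208) and without WT cage female replicate 1 (0.0374), and Mtrf1l, a release factor, had -0.43 ± 0.16 (SE, adjusted p = 0.214).

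Among 20 mitochondrial aminoacyl-tRNA synthetases and related enzymes, 17 were negative (median -0.09), and Nars2, which charges the tRNA for asparagine, had -0.56 ± 0.17 (SE, adjusted p = 0.104). DESeq2, limma-voom and edgeR without the filter called Nars2 (adjusted p = 0.0310, 0.0393 and 0.0447). Qrsl1, a subunit of the enzyme that makes glutaminyl-tRNA, had -0.28 ± 0.13 (SE, adjusted p = 0.282). Of 20 genes of rRNA modification and ribosome assembly, 16 were negative (median -0.06), with -0.27 ± 0.13 for Eral1, a chaperone of the small subunit's rRNA, and -0.31 ± 0.16 for Mrm3, a methyltransferase of the large subunit's rRNA. Of 20 genes of tRNA excision and modification, 13 were negative (median -0.10), with -0.19 ± 0.09 for Trnt1, which adds the CCA end to tRNAs, and -0.24 ± 0.11 for Nsun3, which methylates the tRNA for methionine. None of these 4 passed (adjusted p = 0.306 to 0.359). In cKO alone 88 of 109 genes of the list were negative (median -0.19) and in WT alone 62 (median -0.02), with 0 called in either. In the 3 genotype comparisons, the interaction and the comparison of sexes 0 of 109 were called, and for cKO against WT in runners 74 of 109 were negative (median -0.12).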

How the data were processed

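Total RNA of 25 mouse Achilles tendon libraries was analysed from a table of expected counts and a table of FPKM. Per the labels' protocols, tendons were pulverised in TRIzol, RNA was cleaned on spin columns with DNA digestion, and libraries were made with the UltraExpress RNA kit. The authors deposited expected counts per gene and FPKM (scaled for length and depth), and the submitters' processing notes name cutadapt 2.3, FastQC 0.11.8, STAR 2.7.8a, RSEM 1.3.3 and GRCm38. RSEM divides reads that fit several genes between them, and all deposited expected counts were whole numbers. The annotation release, the use of strand and any removal of rRNA are not given in the sources used here.

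The deposited counts were scaled by TMM and fitted with edgeR 4.0.16 (quasi-likelihood, R 4.3.3) over all 4 groups with sex as a term, after edgeR's filter on low counts, which left 19155 of 55487 genes. P-values were Benjamini-Hochberg adjusted over all tested genes, with a threshold of 0.05. Totals of 13193228 to 45724243 counts set the counting error, and intervals and floors cover counting error only. The 8 comparisons were refitted with other scalings, filters, covariates and library sets, DESeq2 1.42.0, limma-voom and limma 3.58.1 on log2(FPKM + 1) or log2(FPKM + 0.1), whose fold changes understate those of low genes. Muscle relations used 100000 permutations (SciPy 1.17.1). The scripts were tested on simulated data.

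Nuclear copies were found by shared stretches of 50 bases between GENCODE M21 transcripts (GRCm38). Adding the copies' counts, and leaving out the pairs of libraries against their label or standing apart, were chosen after seeing the data. The mitochondrial genes, the nuclear and marker lists and the tests were chosen with earlier results of these data known. All mt mRNAs and rRNAs are named, the 6 tRNAs with the highest mean, and of the nuclear list each gene called and otherwise 2 of each role by p for running.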

Additional observations from a re-analysis of the deposited data

Results flagged for a closer look

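In each group of 6 or 7 libraries, the level of each of the 15 mt mRNAs and rRNAs and of several shares was examined for a single library far from the others. Of 88 such checks 13 found one. Chance gives about 1 in 20 for separate checks, but these are not separate, since the mt genes moved together and 9 of the 13 are genes of only 2 libraries. cKO cage male replicate 2 was high for mt-Co1 (24959 CPM), mt-Nd4 (9283), mt-Nd1 (8668), mt-Atp6 (434), mt-Co2 (216) and mt-Rnr1 (157623). WT running male replicate 1 was high for mt-Nd5 (8154 CPM), mt-Nd2 (4643) and mt-Nd6 (1664).

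WT cage female replicate 1 was low for the muscle share of nuclear counts (2.86%), for the share of counts on the nuclear copies (0.856%) and for the share of mt-Nd6 among mt mRNA and copy counts (1.66%). In cKO running male replicate 2, rRNA counts were 9.89 times those of mRNAs and copies, beside at most 5.88 in its group. eGFP had 2731 counts in the library labelled WT running male replicate 2, beside at most 1 in the other WT libraries.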

How the results depend on the processing

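The count of mt genes called was 0 in every alternative and comparison except 3. Without the filter on low counts it was 2 for running in cKO and 3 for running as the mean of both genotypes, and with limma-voom and quality weights it was 2 for that mean. The median of the 13 mRNAs kept its sign in all alternatives for running in cKO (-0.83 to -0.27) and for the mean (-0.55 to -0.17). It changed sign for running in WT (-0.26 to 0.05) and for cKO against WT at cage activity (-0.12 to 0.26). Over all genes, the call rate for running as the mean of both genotypes (1.41%, 271 genes) was 0.651% without WT running male replicate 2, 3.00% without WT cage female replicate 1, 0.653% without the 2 libraries of the other project, 0.0412% in females alone and 4.76% with limma-voom. The 8 calls in cKO became 3 without cKO cage female replicate 1 and 60 without WT cage female replicate 1. They became 3 without the 2 libraries with the other code, 0 in females alone and 574 without the filter. The 25 calls in WT became 11 without WT running male replicate 2 and 39 without cKO running male replicate 2. They became 12 without the 2 libraries with the other code, 1 in females alone and 278 with the muscle covariate. The 118 calls between the sexes ranged from 41 (FPKM) to 445 (no filter).

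Some single genes near 0 reversed, and the cause was not tested. For cKO against WT in runners, mt-Nd3 was 0.108, mt-Rnr1 0.0241 and mt-Rnr2 0.208 with the muscle covariate. mt-Rnr2 was 0.0234 with limma-voom and 0.0782 in males alone, and on FPKM with either pseudocount mt-Nd3 was 0.0852 and mt-Rnr2 0.122. With 1 library left out mt-Nd3 ran from -0.280 to 0.0728 and mt-Rnr2 from -0.150 to 0.130. For running as the mean, mt-Co2 was 0.0307 with the muscle covariate, 0.0546 with limma-voom, 0.123 in females, 0.0577 without the 2 libraries that stand apart, and -0.153 to 0.0597 with 1 library left out. In females mt-Atp6 was 0.0439 and mt-Nd4l 0.284. On FPKM with a pseudocount of 1 or 0.1, Qrsl1 was 0.0317 or 0.0376, Tfb2m 0.0695 or 0.0751 and Trnt1 0.11 or 0.12. The correlation of mt-Co1 with muscle was 0.415 by Spearman and 0.419 to 0.674 with 1 library left out.

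Replicate numbers gave no sign of pairing: deviations of same-numbered libraries correlated with a median of -0.03 (34 pairs, 8 over 0.1), and those of other numbers with 0.02 (83 pairs, 23 over 0.1). With a replicate block, 0 mt genes were called, the median for running was -0.41 for the mean and -0.69 in cKO, mt-Nd3 was 0.00514 for cKO against WT in runners, and 148 genes were called for running in place of 271. For a tRNA without counts in a library, counting error alone leaves room for levels below 0.0656 to 0.227 CPM, depending on the library. These bounds are not detection limits, since mt-Tg had a median of 0.0512 CPM over all libraries. What keeps the tRNA counts low was not tested.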
